A study of Mus musculus with 5 samples.

Results

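The 5 genes described here, Wfdc1, Wfdc2, Wfdc15b, Wfdc17 and Wfdc18, encode small secreted proteins of the whey acidic protein (WAP) four-disulfide core family. They were chosen by family name from the 28666 genes of the count table, with the counts of these libraries and the difference of Wfdc1 between the groups already in view, and all 5 were abundant enough to be among the 17013 genes tested. Whole uteri of ICR females, 6 to 8 weeks old and mated with sterilized C57BL/6 males, were sequenced. In the young-SP group the males were 12 to 14 weeks old (n = 3, replicates 1, 2 and 4), and in the aged-SP group they were 12 to 18 months old (n = 2, replicates 1 and 4). All males in both groups were vasectomized, so every female received seminal plasma (SP) without sperm, and no female carried embryos. The comparison asks how the age of the male that supplied the seminal plasma relates to the uterine transcriptome before implantation. The labels place the collection at day 3.5 after caging and the study's methods place it at 3.0 days post coitum. The sources do not state whether each library was made from a single female, so the spread between libraries may be partly technical.

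The WAP domain is a short fold held together by disulfide bonds between conserved cysteines. Several members of the family inhibit serine proteases, several kill bacteria, and for others no protease target is known. In the female reproductive tract such proteins are secreted mainly by epithelia, where they are regarded as part of mucosal defence, while some members are made by stromal cells or by macrophages.

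The shared fold is visible in the coding sequence, which is shown because it is the feature that unites the 5 genes and because it shows how closely related they are. Each line gives the stretch from the first to the last of 6 of the 8 domain cysteines, read 5′ to 3′ on the coding strand of GRCm38 with GENCODE M21 gene models, and the capitals mark the cysteine codons.
Wfdc1, exon 2 of 7, chr8:119679367-119679432, plus strand: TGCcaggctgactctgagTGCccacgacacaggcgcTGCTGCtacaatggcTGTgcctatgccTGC
Wfdc2, first core, exon 2 of 5, chr2:164563373-164563438, plus strand: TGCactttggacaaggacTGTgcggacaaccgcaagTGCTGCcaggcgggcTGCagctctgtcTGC
Wfdc2, second core, exon 4 of 5, chr2:164565851-164565919, plus strand: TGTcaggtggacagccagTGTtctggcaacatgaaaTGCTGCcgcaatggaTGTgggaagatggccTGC
Wfdc15b, exon 3 of 4, chr2:164215141-164215206, minus strand: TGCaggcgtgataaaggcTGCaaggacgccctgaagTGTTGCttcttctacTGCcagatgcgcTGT
Wfdc17, exon 2 of 3, chr11:83704859-83704924, plus strand: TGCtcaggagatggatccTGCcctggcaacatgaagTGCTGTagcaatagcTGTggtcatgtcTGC
Wfdc18, exon 2 of 3, chr11:83709916-83709981, plus strand: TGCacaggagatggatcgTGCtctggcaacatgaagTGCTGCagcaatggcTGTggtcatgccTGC

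The cores were found with a pattern that required the paired cysteine codons in the middle and 5 residues on their left back to the preceding cysteine. It allowed 3 to 5 residues on the right of the pair, and every core had 3. Wfdc2 carries 2 cores and 18 cysteine codons in 174 codons, whereas the other members carry 1 core by this pattern. Wfdc15b, Wfdc17 and Wfdc18 are little more than the domain itself, with 80, 76 and 74 codons, and Wfdc1 is the longest with 211. The Wfdc17 and Wfdc18 cores were identical at 60 of 66 bases (90.9%), and the remaining pairs of first cores were identical at 39.4% (Wfdc1 and Wfdc15b) to 62.1% (Wfdc1 and Wfdc18). In spite of that likeness the reads of these genes can be told apart, since none of the 50-base stretches of any member's transcripts occurs in another gene and no exon of a member overlaps an exon of another gene.

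Total counts lay between 15071914 and 16728601 per library. The markers matched the labelled tissue, with uterine stroma (Pdgfra, Hoxa10, Hoxa11), smooth muscle (Myh11) and epithelium (Epcam, Krt8) in every library. In the main axis of variation over the 500 most variable genes, which held 66.2% of their variance, young-SP replicate 1 lay at -9.43, between the aged-SP libraries (-43.7 and -25.5) and the other young-SP libraries (41.9 and 36.6). It is therefore the young-SP library nearest to the aged-SP group, and results that rest on it are given with and without it. In bulk tissue, fewer cells of a type and less RNA per cell cannot be told apart.

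Levels between genes were compared per length with the authors' FPKM (fragments scaled by gene length and library total). Wfdc2 was the most abundant member, with a mean of 218 FPKM over the 5 libraries (78.7 to 385), above 99.3% of all listed genes. Wfdc1 followed with 99.4 FPKM (49.9 to 145), above 98.4% of genes. Wfdc17 averaged 28.5 FPKM (17.0 to 40.6), Wfdc15b 9.28 FPKM (4.43 to 15.5) and Wfdc18 5.89 FPKM (1.18 to 11.9). Along this order the ranges of Wfdc2 and Wfdc1 overlapped, as did those of Wfdc15b and Wfdc18, so neither pair of neighbours was separated beyond its spread. The order itself also varied between libraries, as Wfdc1 exceeded Wfdc2 in young-SP replicate 2 and Wfdc18 exceeded Wfdc15b in aged-SP replicate 4 and young-SP replicate 1.

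Wfdc1, Wfdc2 and Wfdc15b differed between the groups in their share of these transcripts. Of the summed FPKM of the 5 genes, Wfdc1 made up 10.6% and 16.6% in aged-SP replicates 1 and 4, and 25.7%, 58.5% and 42.0% in young-SP replicates 1, 2 and 4. Wfdc2 made up 80.7% and 63.8% in the aged-SP group against 60.9%, 31.9% and 48.0% in the young-SP group. Wfdc15b made up 3.24% and 3.59% against 2.11%, 1.79% and 1.87%. The shares of each of these genes were separate between the groups, and young-SP replicate 1 was the young-SP library closest to the aged-SP side in each. The shares of Wfdc17 and Wfdc18 overlapped. The shares are parts of the same sum, so a lower level of Wfdc1 by itself raises the shares of Wfdc2 and Wfdc15b. The FPKM of Wfdc2 alone overlapped between the groups (385 and 192 against 281, 78.7 and 152). The ratio of Wfdc2 to Wfdc1 FPKM was 7.58 and 3.85 in the aged-SP libraries and 2.37, 0.545 and 1.14 in the young-SP libraries. The summed FPKM of the 5 genes overlapped between the groups (477 and 301 against 463, 247 and 317), so the groups were separate in the make-up of these transcripts and not in their total.

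**Figure D1:**
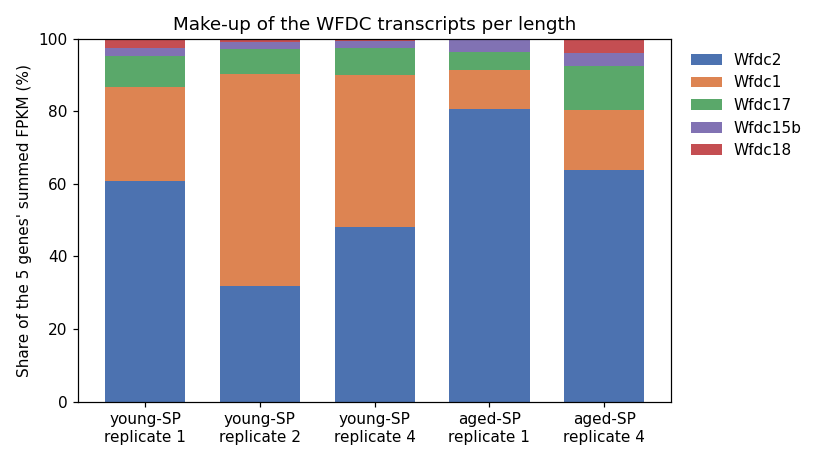
Share of each gene in the summed FPKM of Wfdc1, Wfdc2, Wfdc15b, Wfdc17 and Wfdc18 (percent, stacked bars that start at 0), 1 bar per library. Wfdc1 takes 10.6% and 16.6% in the aged-SP libraries against a range of 25.7% to 58.5% in the young-SP libraries, while Wfdc2 takes more than any other member in every library except young-SP replicate 2. The small share of Wfdc15b is 3.24% and 3.59% against a range of 1.79% to 2.11%.

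Because the 5 genes were listed with their pattern in these libraries known, their differences between the groups are given as a description, without p-values. Levels of 1 gene across libraries are given as CPM, the counts scaled to library size with edgeR's TMM factors, and log2 fold changes are aged-SP over young-SP. Of the 5 members, 1 passed edgeR's call (Benjamini-Hochberg adjusted p below 0.05 and a log2 fold change beyond 1 in either direction), beside 0.147% of all tested genes (0.0823% higher and 0.0647% lower), and 2 had no overlap between the groups, beside 38.8% of all tested genes. The count of calls over all genes was 25 with every library and 578 of 16745 (3.45%, of which 1.74% higher and 1.71% lower) without young-SP replicate 1. The median log2 fold change of the 5 members was 0.25, beside 0.01 over all tested genes, with 4 positive and 1 negative.

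**Figure D2:**
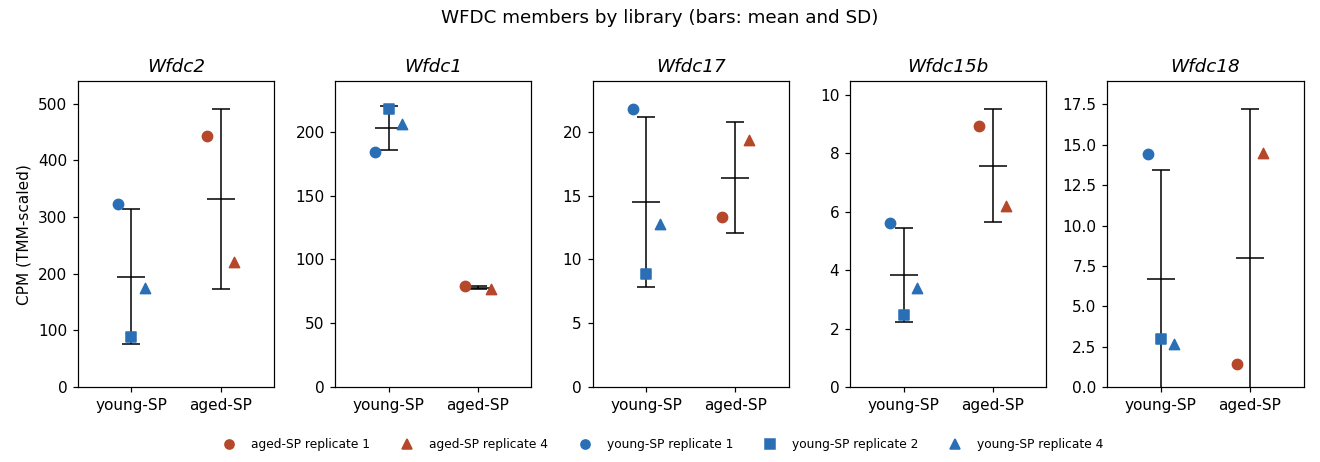
TMM-scaled CPM of each member (vertical axes start at 0 and differ between panels), with 1 symbol per library, the group mean as the middle bar and 1 SD on either side, cut at 0. Wfdc1 is separate between the groups with all 3 young-SP libraries higher, Wfdc15b is separate with both aged-SP libraries higher, and the other members overlap.

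Wfdc1, first described as a growth-inhibitory protein secreted by the stroma of the prostate, was lower in both aged-SP libraries. The gene (ENSMUSG00000023336, chr8:119666365-119688222, plus strand) had 1308 and 1204 counts in aged-SP replicates 1 and 4, against 2947, 3686 and 3084 counts in young-SP replicates 1, 2 and 4. In CPM these were 79.1 and 77.0 against 184, 218 and 206. The aged-SP libraries were nearly equal to each other, and each lay below every young-SP library, replicate 1 included. The aged-SP mean was 78.0 ± 1.46 CPM (SD, n = 2), and the young-SP mean was 203 ± 17.0 CPM (SD, n = 3). Their ratio was 0.385, and the fitted log2 fold change was -1.38 (SE 0.11). It was the member that passed edgeR's call, which 0.0647% of tested genes did in the lower direction, and it also passed with DESeq2, which called 1.92% of genes lower and 1.69% higher. Wfdc1 was listed with this difference known, so the calls describe it and are not independent support. The log2 fold change lay between -1.45 and -1.32 in 12 alternative fits, of which 7 made the call. The call was not made with the replicate number as a block, nor without aged-SP replicate 1 or 4 or young-SP replicate 2 or 4, and without young-SP replicate 1 the log2 fold change was -1.45. Among the 5 genes Wfdc1 also had the smallest spread within groups, with a pooled SD of log2 CPM of 0.10.

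The markers of stroma and smooth muscle, cell types known to make Wfdc1, overlapped between the groups in their summed level. The summed CPM of 12 stromal markers overlapped between the groups (4320 to 5160 in the aged-SP group, 4360 to 5930 in the young-SP group), and so did that of 8 smooth muscle markers (9250 to 11700 and 9570 to 14500). Neither list had a gene called by edgeR, no gene of either was at 0 in every library, and the medians of their log2 fold changes were -0.18 and 0.07. Single stromal genes did separate, in both directions. Of the 12, 6 had an unadjusted p below 0.05 in edgeR, 4 were lower without overlap in the aged-SP libraries (Pdgfra, Hand2, Hoxa11 and Pgr) and 2 were higher (Pdgfrb and Esr1), beside 19.0%, 19.3% and 19.5% of all tested genes. Among the genes without overlap, Pdgfra, a growth factor receptor of stromal cells, had the largest difference, at 347 and 344 against 453, 617 and 560 CPM. The ratio of its means was 0.636, with a log2 fold change of -0.65 (SE 0.15; Benjamini-Hochberg adjusted p = 0.12 in edgeR and 0.00476 in DESeq2). The part of such cells in the difference of Wfdc1 was not tested. The most abundant genes of the lists were Dcn, a matrix proteoglycan, at 1870 and 2390 CPM against 1670, 1860 and 2540 CPM, and Myh11, smooth muscle myosin, at 3630 and 4540 CPM against 3500, 3050 and 5110 CPM. Vim, an intermediate filament of mesenchymal cells, was at 550 and 832 CPM against 696, 1270 and 1180 CPM, and Acta2, smooth muscle actin, was lower in both aged-SP libraries (2470 and 2940 against 3030, 3540 and 4270 CPM) with a log2 fold change of -0.42 that did not pass edgeR's test (Benjamini-Hochberg adjusted p = 0.276).

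Set against the summed CPM of these lists, the separation of Wfdc1 between the groups was of about the same size. Per 1000 CPM of the stromal markers, Wfdc1 stood at 18.3 and 14.9 in the aged-SP libraries and at 42.2, 40.5 and 34.7 in the young-SP libraries. Per 1000 CPM of the smooth muscle markers it stood at 8.55 and 6.56 against 18.5, 22.8 and 14.2. The groups were separate on both scales, with ratios of the group means of 0.425 and 0.409. Both scales follow the most abundant genes of each list. Dcn was the largest part of the stromal sum (1870 and 2390 of 4320 and 5160 CPM in the aged-SP libraries) and had a log2 fold change of 0.07. Myh11 and Acta2 made up most of the smooth muscle sum. Wfdc1 was not set against single markers such as Pdgfra, which was itself lower in both aged-SP libraries. The 5 endothelial markers, which summed to 533 to 537 CPM in the aged-SP group and 406 to 700 CPM in the young-SP group, overlapped as well.

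The genes with the most similar pattern to Wfdc1 were found by the root mean square difference of log2 CPM, each gene centred on its own mean over the 5 libraries, so that a low value means a similar shape whatever the level. They were Lipc, the hepatic lipase (0.0562), Tmem26, a transmembrane protein (0.0617), Epha3, an ephrin receptor (0.0877), Enox1, a cell surface oxidase (0.107), and Spa17, a sperm surface protein (0.107). Tmem26 stood at 9.37 and 8.83 CPM in the aged-SP libraries and at 24.1, 27.0 and 26.0 CPM in the young-SP libraries. Epha3 stood at 2.48 and 2.43 against 6.88, 7.45 and 7.61 CPM. These genes were picked for their likeness in the same libraries, and Lipc and Spa17 were near the lower limit of the tested genes, with at most 1.0 and 1.40 CPM. The nearest tested genes on the chromosome had other patterns. Kcng4, a potassium channel subunit that ends 30.7 kb before Wfdc1, had a log2 fold change of 0.15 (edgeR, Benjamini-Hochberg adjusted p = 0.727). Atp2c2, a secretory pathway calcium pump that starts 11.8 kb after it, had a log2 fold change of 0.54 (edgeR, Benjamini-Hochberg adjusted p = 0.467).

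Wfdc2, also called HE4, is a secreted product of reproductive tract and airway epithelium. It lies at chr2:164562413-164568510 on the plus strand (ENSMUSG00000017723) and had 7348 and 3432 counts in aged-SP replicates 1 and 4, against 5170, 1487 and 2611 counts in young-SP replicates 1, 2 and 4. In CPM these were 444 and 220 against 323, 87.9 and 174. Aged-SP replicate 1 was highest and young-SP replicate 2 lowest, but young-SP replicate 1 exceeded aged-SP replicate 4, so the groups overlapped. The means were 332 ± 159 CPM (SD, n = 2) and 195 ± 119 CPM (SD, n = 3), and the log2 fold change was 0.77 (SE 0.57). It was 1.33 without young-SP replicate 1 and 0.17 without aged-SP replicate 1, so the size of the difference rested on single libraries. The pooled SD of log2 CPM, 0.87, exceeded that of Wfdc1, although Wfdc2 had the larger counts in 3 of the 5 libraries.

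Wfdc15b (SWAM1), a single-domain protein with antibacterial activity, stood higher in each aged-SP library than in any library of the young-SP group. The gene (ENSMUSG00000018211, chr2:164214454-164221660, minus strand) had 148 and 97 counts in aged-SP replicates 1 and 4, and 90, 42 and 51 counts in young-SP replicates 1, 2 and 4. In CPM these were 8.95 and 6.20 against 5.63, 2.48 and 3.40. The gap between the groups was narrow, from 5.63 CPM in young-SP replicate 1 to 6.20 CPM in aged-SP replicate 4. The means were 7.58 ± 1.94 CPM (SD, n = 2) and 3.84 ± 1.62 CPM (SD, n = 3), and the log2 fold change was 0.98 (SE 0.39), or 1.35 without young-SP replicate 1 and 0.69 without aged-SP replicate 1.

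Wfdc2 and Wfdc15b, 348 kb apart on chromosome 2, had the most similar patterns of any 2 members. Their centred log2 CPM differed by a root mean square of 0.297, against 0.505 to 1.52 for the other pairs, and both were highest in aged-SP replicate 1 and lowest in young-SP replicate 2. The ratio of Wfdc2 to Wfdc15b FPKM stayed between 17.8 and 28.8 in all libraries. Outside the family, the genes nearest in pattern to Wfdc15b were Lsr, a tricellular junction receptor of epithelia (0.0362), and Dennd2d, a Rab exchange factor (0.107). Lsr stood at 36.3 and 26.7 CPM in the aged-SP libraries and at 23.5, 10.1 and 14.3 CPM in the young-SP libraries. The genes nearest to Wfdc2 were Me3, a mitochondrial malic enzyme (0.109), and Tgm1, the transglutaminase of cornified epithelia (0.166).

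Epithelial markers varied widely between the libraries, and young-SP replicate 1 stood with the aged-SP group. The 11 epithelial markers summed to 5720 and 6850 CPM in the aged-SP libraries, against 6980, 788 and 1360 CPM, with a median log2 fold change of 0.75, or 1.58 without young-SP replicate 1. Most of that came from Ltf, lactoferrin (2710 and 4330 against 3630, 28.3 and 394 CPM), and Lcn2, lipocalin-2 (1670 and 1090 against 1630, 2.31 and 4.01 CPM), secreted iron-handling proteins of the uterine epithelium. Without these genes, a choice made after seeing the data, the remaining 9 markers summed to 1340 and 1440 CPM against 1720, 757 and 959 CPM. None of the 11 genes was called by edgeR, and none was at 0 in every library.

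Per 1000 CPM of the 9 remaining epithelial markers, Wfdc2 stood at 332 and 153 in the aged-SP libraries and at 188, 116 and 182 in the young-SP libraries, which overlapped. Wfdc15b stood at 6.68 and 4.32 against 3.27, 3.28 and 3.55 on the same scale, so the 3 young-SP libraries were nearly equal, and both aged-SP libraries were higher. That separation depended on leaving out Ltf and Lcn2, since with all 11 markers Wfdc15b stood at 1.56 and 0.905 against 0.806, 3.15 and 2.51, which overlapped with a ratio of the group means of 0.573. With all 11 markers Wfdc2 stood at 77.7 and 32.0 against 46.3, 112 and 128, in the opposite direction on average, which shows how far Ltf and Lcn2 set that sum. Against the 8 gland genes the order also turned. Wfdc2 stood at 106 and 73.4 per 1000 CPM of them in the aged-SP libraries and at 314, 195 and 290 in the young-SP libraries, and Wfdc15b at 2.14 and 2.08 against 5.47, 5.50 and 5.66. The genes that set that sum differed between the groups. In the aged-SP libraries they were Prss29 (2460 and 2140 against 385, 2.96 and 11.5 CPM) and Prss28 (1450 and 764 against 90.7, 0.355 and 0.267 CPM), which are serine proteases of the uterine glands. In each young-SP library the largest was Calb1, a calcium-binding protein (102 and 60.2 against 520, 399 and 558 CPM). The 8 gland genes had a median log2 fold change of 0.35, and none was called by edgeR. Without overlap, 3 of them were higher and 3 lower, beside 19.5% and 19.3% of all tested genes. DESeq2 gave no p-value to Prss28 and Prss29 (log2 fold changes 5.18 and 4.11), so it could not call them. It called 3 other gland genes lower, beside 1.92% of all genes. These were Calb1 (log2 fold change -2.60, Benjamini-Hochberg adjusted p = 0.0598 in edgeR and 1.44e-17 in DESeq2), Cxcl15, a chemokine of gland epithelium (-2.35, 0.116 and 0.000254), and Ttr, a thyroid hormone carrier (-3.73, 0.123 and 0.00474).

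**Figure D3:**
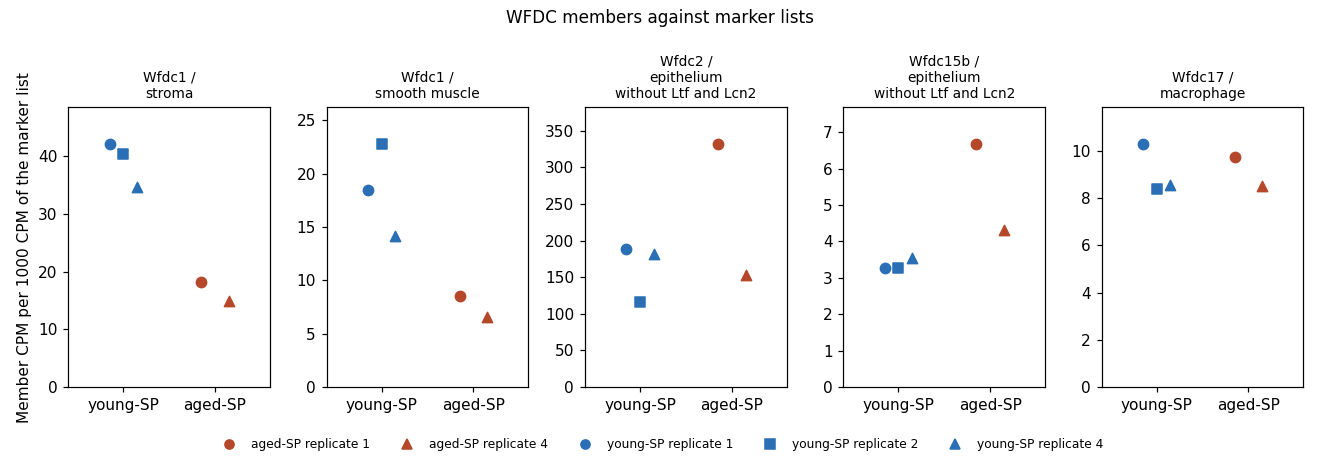
CPM of a member per 1000 CPM of a list of marker genes (vertical axes start at 0 and differ between panels), with 1 symbol per library. Wfdc1 remains separate between the groups against stroma and smooth muscle, Wfdc15b is separate against epithelium without Ltf and Lcn2 but not against all 11 epithelial markers (not plotted), and Wfdc17 against the summed macrophage markers lies between 8.38 and 10.3 in all 5 libraries.

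The neighbours of both genes on chromosome 2 were measured too. Pigt, a subunit of the enzyme that attaches GPI anchors, lies 54.1 kb before Wfdc2 with a log2 fold change of -0.11 (edgeR, Benjamini-Hochberg adjusted p = 0.688). Stk4, a Hippo pathway kinase, lies 58.9 kb before Wfdc15b with a log2 fold change of 0.07 (edgeR, Benjamini-Hochberg adjusted p = 0.755). The tested genes on the other side were the WAP-domain genes Wfdc6a, 11009 bases after Wfdc2, and Slpi, 132 kb after Wfdc15b, which are described with the other WAP-domain genes.

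Wfdc17 (AMWAP), known from activated macrophages and microglia, showed no separation between the groups. The gene (ENSMUSG00000069792, chr11:83703991-83706268, plus strand) had 220 and 304 counts in aged-SP replicates 1 and 4, against 349, 150 and 191 counts in young-SP replicates 1, 2 and 4. In CPM these were 13.3 and 19.4 against 21.8, 8.87 and 12.8, and young-SP libraries held both the highest and the lowest value. The means were 16.4 ± 4.34 CPM (SD, n = 2) and 14.5 ± 6.65 CPM (SD, n = 3), with a log2 fold change of 0.18 (SE 0.41). It was 0.59 without young-SP replicate 1 and -0.12 without aged-SP replicate 4, so its direction rested on which libraries were included.

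Although Wfdc17 differed up to 2.46-fold between libraries, it kept a nearly fixed ratio to the summed macrophage markers. The 12 markers summed to 1360 and 2290 CPM in the aged-SP libraries, against 2120, 1060 and 1490 CPM, with a median log2 fold change of 0.08 (0.46 without young-SP replicate 1) and no gene called by edgeR. Per 1000 CPM of them Wfdc17 stood at 9.76 and 8.50 against 10.3, 8.38 and 8.55, a 1.23-fold range. Lyz2, the macrophage lysozyme, was the most abundant of the list at 723 and 1290 CPM against 1060, 545 and 755 CPM. The sum largely follows this gene, which held 723 of 1360 and 1290 of 2290 CPM in the aged-SP libraries. Wfdc17 was not set against single macrophage markers. C1qb, a complement subunit made by tissue macrophages, was the tested gene with the second most similar pattern to Wfdc17 (root mean square difference 0.0586), after Tmem8, a membrane protein (0.0558), and stood at 116 and 181 against 182, 81.0 and 109 CPM. Both were picked for their likeness in the same libraries. Against 10 neutrophil markers, which summed to 136 and 55.8 CPM in the aged-SP libraries and 279, 75.5 and 55.0 CPM in the young-SP libraries, Wfdc17 ranged from 78.1 to 348 per 1000 CPM. Their most abundant genes, S100a9 and Csf3r, were highest in young-SP replicate 1 at 102 and 78.7 CPM.

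Wfdc18 (Expi), a predicted extracellular proteinase inhibitor known from mammary gland, varied more than any other member, and within both groups. The gene (ENSMUSG00000000983, chr11:83709015-83711348, plus strand) had 24 and 227 counts in aged-SP replicates 1 and 4, and 231, 50 and 40 counts in young-SP replicates 1, 2 and 4. In CPM these were 1.45 and 14.5 against 14.4, 2.96 and 2.67. Aged-SP replicate 4 and young-SP replicate 1 were high, and the other libraries low, so the aged-SP libraries were farther apart than the group means. The means were 7.98 ± 9.24 CPM (SD, n = 2) and 6.69 ± 6.72 CPM (SD, n = 3), and the log2 fold change was 0.25 (SE 1.13). It was 1.48 without young-SP replicate 1, 1.11 without aged-SP replicate 1, -2.20 without aged-SP replicate 4, and -0.11 and -0.14 when young-SP replicate 2 or 4 was left out, so these data give no direction for it.

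Wfdc18 lies 2.75 kb downstream of Wfdc17 on the same strand, and their cores differ at only a few bases, but their levels did not run in parallel. The ratio of Wfdc17 to Wfdc18 FPKM was 21 and 3.07 in the aged-SP libraries and 3.46, 6.87 and 10.9 in the young-SP libraries, and their centred log2 CPM differed by a root mean square of 1.0. Per 1000 CPM of the macrophage markers Wfdc18 ranged from 1.06 to 6.81, wider than Wfdc17 on that scale. No tested gene matched its pattern closely. The nearest were Fat2, an atypical cadherin (0.41), which was at 0 in 3 libraries and at most 1.0 CPM, and Adgrg7, an adhesion receptor known from intestine (0.415), at 8.28 and 35.0 against 72.6, 12.3 and 13.1 CPM. Mammary markers were all but absent, as the 2 milk protein genes present in the table summed to at most 0.267 CPM in any library and were below the limit for testing. The nearest tested genes around the pair were Ccl4, a macrophage chemokine that ends 39.3 kb before Wfdc17, with a log2 fold change of 0.86 (edgeR, Benjamini-Hochberg adjusted p = 0.631), and Heatr6, which starts 42.3 kb after Wfdc18 and beyond the untested Wfdc21, with a log2 fold change of 0.07 (edgeR, Benjamini-Hochberg adjusted p = 0.797).

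The rest of the WAP-domain family was examined as a list of 19 further genes, of which 13 are in the table and 9 could be tested. None of the 9 was called by edgeR, while 3 had an unadjusted p below 0.05 in edgeR, which 19.0% of all tested genes had, and DESeq2 called 3, Wfdc16 higher and Wfdc13 and Wfdc6a lower, beside 3.6% of the genes to which it gave an adjusted p. Their median log2 fold change was 0.89, beside 0.01 over all tested genes, with 5 positive and 4 negative. That median was 0.51 without young-SP replicate 1 and turned to -0.26 without aged-SP replicate 1 and to -0.44 without aged-SP replicate 4, so the list as a whole has no stable direction. Of the 9, 3 were without overlap in each direction, beside 19.5% (aged-SP higher) and 19.3% (aged-SP lower) of all tested genes.

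The family members that were higher in both aged-SP libraries were Wfdc16, Wfikkn2 and Wfdc10. Wfdc16, a gene of the chromosome 2 cluster, had 54 and 49 counts in aged-SP replicates 1 and 4 and 3, 1 and 0 counts in young-SP replicates 1, 2 and 4. Its log2 fold change was 5.14 (SE 0.68), with an adjusted p of 0.0734 in edgeR and 4.91e-06 in DESeq2 (Benjamini-Hochberg). Over the summed counts, and scaled by library totals, the aged-SP level was 37.9 times the young-SP level (95% exact interval 14.4 to 142, counting error only). Wfdc16 passed edgeR's call without young-SP replicate 1 (log2 fold change 6.35, adjusted p = 0.0203) and with no filter on low counts (5.13, adjusted p = 0.024). Wfikkn2, a secreted antagonist of myostatin-type ligands, had 1392 and 2027 counts against 1105, 266 and 572, with a log2 fold change of 1.38 (SE 0.58; edgeR, Benjamini-Hochberg adjusted p = 0.28). Wfdc10 had 227 and 84 counts against 81, 16 and 36, with a log2 fold change of 1.77 (SE 0.72; edgeR, Benjamini-Hochberg adjusted p = 0.272). Without young-SP replicate 1 the log2 fold changes of Wfikkn2 and Wfdc10 were 1.97 and 2.51.

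The family members without overlap in the other direction were Wfdc13, Wfdc6a and Eppin. Wfdc13 had 0 and 4 counts against 7, 39 and 62, and its log2 fold change was -4.11 (SE 1.37), with an adjusted p of 0.209 in edgeR and 0.0239 in DESeq2 (Benjamini-Hochberg). Over the summed counts, the young-SP level was 18.3 times the aged-SP level (95% exact interval 6.95 to 68.5, counting error only). Wfdc6a had 9 and 4 counts against 22, 31 and 34, and its log2 fold change was -2.16 (SE 0.48), with an adjusted p of 0.114 in edgeR and 0.0272 in DESeq2 (Benjamini-Hochberg). Its counts are uncertain, since 46.7% of the 50-base stretches of its transcripts also occur in its neighbour Wfdc6b. Eppin, a protease inhibitor best known from the epididymis, had 1 and 9 counts against 10, 23 and 16, with a log2 fold change of -1.67 (edgeR, Benjamini-Hochberg adjusted p = 0.343).

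The remaining tested family members overlapped between the groups. Slpi, the secretory leukocyte protease inhibitor that protects mucosa from neutrophil elastase, had 253 and 68 counts against 150, 25 and 72, with a log2 fold change of 0.91 (SE 0.83; edgeR, Benjamini-Hochberg adjusted p = 0.587). Aged-SP replicate 1 carried that difference, since the log2 fold change was -0.26 without it. The log2 fold change of Slpi was 1.64 without young-SP replicate 1. Wfdc3 had 23 and 42 counts against 47, 118 and 33 (log2 fold change -0.99; edgeR, Benjamini-Hochberg adjusted p = 0.43). Wfdc8 had 9 and 35 counts against 5, 9 and 21 (log2 fold change 0.89; edgeR, Benjamini-Hochberg adjusted p = 0.597), and it overlaps Wfdc6b on the opposite strand, so reads of the overlap cannot be assigned without strand. Of the untested genes, Wfdc21 had 10 and 0 counts against 6, 0 and 0.

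Most of the family lies in 1 cluster, as 12 of the WAP-domain genes in the table are within 570 kb of chromosome 2. Neighbouring genes of that cluster differed in direction. Wfdc2 (log2 fold change 0.77) is followed at 17.1 kb by Wfdc6a (-2.16) and at 72.3 kb by Wfdc16 (5.14), counted between the lowest coordinates of the genes, and Wfdc10 (1.77) and Wfdc13 (-4.11) follow at 93.6 and 123 kb. Wfdc1 lies apart from this cluster on chromosome 8, and Wfdc17 and Wfdc18 lie on chromosome 11 with Wfdc21 (chr11:83746940-83752642, plus strand), which was too low to test.

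**Figure D4:**
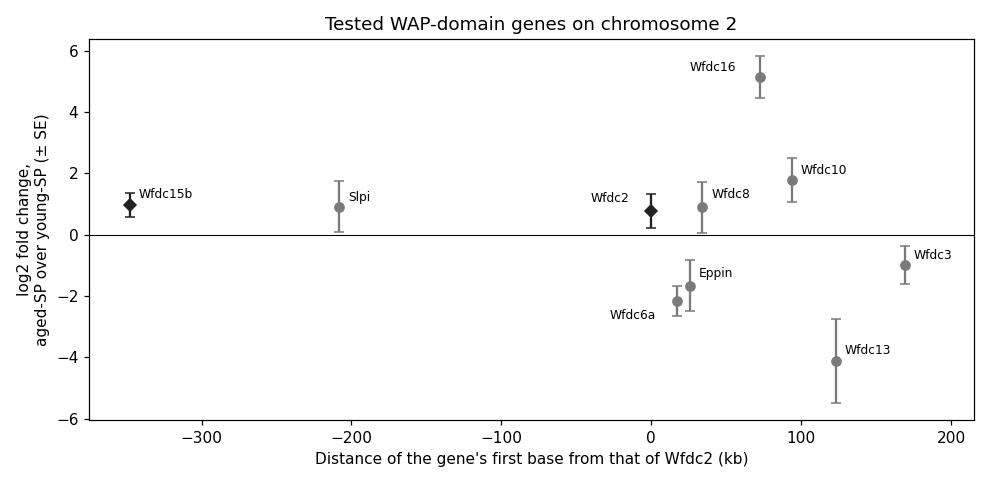
Fitted log2 fold change (aged-SP over young-SP, points, with 1 SE as bars) of the 10 tested WAP-domain genes on chromosome 2 against the distance of each gene's lowest coordinate from that of Wfdc2 (kb). Diamonds are Wfdc15b and Wfdc2, circles are other family genes, and values run from -4.11 (Wfdc13) to 5.14 (Wfdc16) within 123 kb of Wfdc2, with both signs among neighbours.

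Secreted serine proteases, the class of enzyme that several WAP proteins inhibit, were taken as a list of 12 genes, of which 9 could be tested. The gland proteases Prss28 and Prss29 were not on it, as they belong to the gland list. None of the list was called by edgeR, and 3 had an unadjusted p below 0.05 in edgeR, beside 19.0% of all tested genes. DESeq2 called 1 of the list higher, the myeloid protease Prtn3, beside 1.69% of the genes to which it gave an adjusted p. Prtn3 stood at 3.45 and 1.73 against 0.751, 0.591 and 0.401 CPM, with a log2 fold change of 2.14 (Benjamini-Hochberg adjusted p = 0.0203 in DESeq2 and 0.108 in edgeR). The median log2 fold change of the list was 1.26, beside 0.01 over all tested genes, with 7 positive and 2 negative. That median was 0.28 without aged-SP replicate 4. The mast cell proteases Cma1, Mcpt4, Tpsb2 and Tpsab1 had log2 fold changes of 1.24, 1.43, 1.26 and 1.49. Each of them overlapped between the groups and was highest in aged-SP replicate 4. Klk1, with a log2 fold change of 3.40 (SE 0.99), stood at 95.7 and 9.27 against 8.01, 2.36 and 4.54 CPM. The log2 fold changes of Prss8 and Htra1 were both -0.09. The most abundant of the list were Htra1, a protease of the extracellular matrix (91.8 and 127 against 116, 93.4 and 140 CPM), and Prss23, known from the ovary (53.4 and 50.8 against 38.2, 30.9 and 31.4 CPM). Prss23 was higher in both aged-SP libraries, and the log2 fold change was 0.64 (SE 0.13), with a Benjamini-Hochberg adjusted p of 0.0986 in edgeR and 0.00552 in DESeq2. Elane, the neutrophil elastase that Slpi inhibits, had no count in any library except young-SP replicate 1.

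Tissue next to the uterus was checked because several WAP genes are abundant in the oviduct, vagina and epididymis. The 7 vaginal and cervical markers summed to 11.4 to 13.1 CPM in the aged-SP group and 6.74 to 9.75 CPM in the young-SP group, which did not overlap. Sbsn, a cornified epithelium protein, made up most of that sum, at 8.04 and 9.47 against 4.50, 4.49 and 6.81 CPM. Of the 7 markers 3 could be tested, and the tested Trp63 and Dsg3 overlapped between the groups. Dsg3 stood at 3.81 and 0.448 against 2.25, 0.414 and 0.801 CPM. The untested Krt5, Krt13, Krt14 and Krtdap were near 0, with at most 0.563 CPM in any library. The 5 oviduct markers summed to 108 to 149 and 50.2 to 252 CPM, with Ovgp1, the oviductal glycoprotein, highest in young-SP replicate 4 at 233 CPM. Pax8, a factor of the tubal and uterine gland epithelium, was higher in both aged-SP libraries (54.8 and 27.4 against 25.4, 14.4 and 17.0 CPM) and its adjusted p was 0.202 in edgeR and 0.0495 in DESeq2 (Benjamini-Hochberg). The part of such tissue in the differences of the WAP-domain genes was not tested.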

How the data were processed

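RNA sequencing of 5 whole-uterus RNA samples was analysed. Libraries were grouped by their labels, and of the value columns that belong to a sample 0 went unused. A further young-SP sample that the study set aside was not analysed here. The authors aligned the reads and deposited raw counts per gene and library, and the submitters' processing notes name HISAT2 2.1.0, HTSeq 0.6.0 and Bowtie2 2.2.3. The annotation release was not given in the sources used here. Libraries were made with the NEBNext Ultra kit, which does not mark strand. The deposited FPKM of the authors equal the counts divided by gene length and library total, which was checked on the values (lengths came out whole within 0.0163 bases). The authors also deposited a mean scaled signal per gene, the log2 fold change of their own DESeq2 comparison and its p-value and adjusted p-value, none of which were used.

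Counts were analysed with edgeR 4.0.16 (filterByExpr, TMM, glmQLFit, glmQLFTest) in R 4.3.3, with Benjamini-Hochberg adjustment over all 17013 tested genes, and a gene was called at an adjusted p below 0.05 with an absolute log2 fold change above 1. DESeq2 1.42.0 and limma 3.58.1 were alternatives, beside other scalings and filters, a replicate block and leaving out each library. The procedure was tested on simulated data. A prior count of 2 was added for log2 CPM. Tables and figures were made with pandas 2.3.3 and matplotlib 3.10.9. Coding sequences were read from GRCm38 with GENCODE M21 models, whose gene positions equal those of the deposited table for all 5 members.

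The members and lists were chosen with earlier results of these data known. Genes named in the text were the 5 members, the other WAP-domain genes with at least 10 counts in a library, the 2 most abundant tested genes of each list, the 5 genes most similar in pattern to Wfdc1 and the 2 most similar to each other member, and the nearest tested genes on each side. Prtn3, Elane, Klk1, Prss8, the mast cell proteases, the tissue markers named with the depths and the further stromal, gland, vaginal and cervical genes were added after their values were seen. Intervals on counts cover counting error alone, as no molecular identifiers were counted. Total counts were 15071914 to 16728601 per library.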

Additional observations from a re-analysis of the deposited data

How the results depend on the processing

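The number of genes that edgeR called was 25, and it was 203 with no filter on low counts, 632 with DESeq2 in its place, and between 1 (without aged-SP replicate 1) and 578 (without young-SP replicate 1) when a library was left out. Where 1 aged-SP library remains, its spread is assumed to equal that of the young-SP group. Of the other WAP-domain genes 0 were called, 1 with no filter, 3 with DESeq2, and 0 to 1 with a library left out. With a library left out, the log2 fold change of Wfdc18 ran from -2.20 to 1.48, and that of Slpi from -0.26 (without aged-SP replicate 1) to 1.64. List medians with a library left out ran from -0.44 to 0.85 (other WAP-domain genes), 0.43 to 1.58 (epithelium), -0.17 to 0.68 (vagina and cervix) and 0.28 to 1.72 (serine proteases). The vagina and cervix median, 0.73, was -0.04 with no filter, 0.21 with at least 10 counts in every sample and -0.07 with DESeq2, and the oviduct median, 0.30, was 1.12 both with no filter and with DESeq2. Each median covers the genes that a setting fitted, so these settings took it over other genes of the list than the main fit did. Single genes kept their values, as Sbsn stood at 0.73 and Pax8 at 1.12 with both edgeR and DESeq2. The cause of the shifts with a library left out was not tested.

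Groups share replicate numbers 1 and 4. Deviations from the group means correlated at 0.152 (1 with 1) and 0.136 (4 with 4) across genes; with 2 aged-SP libraries the crossed values are fixed as the negatives of these and add nothing, and no label says that a number marks a shared day or litter. With the replicate block, 2 genes were called, the log2 fold changes of Wfdc1, Wfdc2, Wfdc15b, Wfdc17 and Wfdc18 were -1.32, 0.40, 0.76, -0.06 and -0.35, and the medians of the other WAP-domain genes and of vagina and cervix were 0.30 and 0.16. The order of the 5 members by level was the same by FPKM with each library left out and as CPM per longest transcript length. Counts from the per-sample files gave no alternative value, since those files hold FPKM only. Depth limits the low family members most, as Wfdc16, Wfdc13, Wfdc6a and Eppin rest on few reads per library.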
